A study of Homo sapiens with 33 samples.

Results

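HSP90 is the molecular chaperone that holds kinases, nuclear receptors and many other signalling proteins in a form that can be activated, and it works with a set of co-chaperones that bring clients, pace its ATPase cycle or help to release the client. The transcripts described here are 10 genes chosen by name, with earlier results of these data known. They are the chaperones HSP90AA1, HSP90AB1 and TRAP1, and the co-chaperones AHSA1, CHORDC1, STIP1, FKBP4, FKBP5, PTGES3 and CDC37. All 10 were found among the 26475 gene symbols of the counts table, and all 10 passed the filter on low counts, which left 14613 genes for testing. RNA was sequenced from HEK293T, a human embryonic kidney line, transfected with plasmids and sorted for GFP 36 to 40 h later. Each library of the 10 guide-bearing groups came from cells that received a plasmid for a Cas9 nickase (nCas9) or a base editor and a plasmid for a guide RNA, either HEKsite2 or RNF2. The base editors were ABEmax and miniABEmax-V82G, which the labels name as controls for A-to-G editing, Target-AID, named as the control for C-to-T editing, and SpACE, the dual editor under study. The remaining group received GFP with no guide, and it and nCas9 are labelled negative controls. Each of the 11 groups holds 3 libraries. All groups thus share the line, the transfection and the GFP sort, and the labels list the same plasmid amounts for every library. The GFP libraries also carry an amount for a guide plasmid, although their guide is given as none. The labels do not say what that plasmid was. The comparison with nCas9 keeps the guide fixed, whereas GFP differs from every other group in the guide as well as in the protein expressed. In the table the SpACE columns also carry the letters UGI and the GFP columns the letters CMV, and the labels do not say whether SpACE contains that inhibitor.

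In the HSP90 cycle, STIP1 (also called HOP) passes clients from HSP70 to HSP90, CDC37 brings in kinases, AHSA1 stimulates the ATPase, PTGES3 (p23) slows it and stabilises the closed form, and the immunophilins FKBP4 and FKBP5 ride on steroid receptor complexes with opposing effects on the glucocorticoid receptor. HSP90AA1 is the stress-inducible cytosolic HSP90, HSP90AB1 the constitutive one, and TRAP1 the mitochondrial member of the family. Heat shock factor 1, itself held inactive by chaperones, induces many of these genes when unfolded proteins accumulate, by binding arrays of inverted GAA units called heat shock elements.

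Such arrays were looked for upstream of the members. RefSeq promoter windows (GRCh38.p14, 250 bases before to 50 after a start, 300 bases in all) were matched for 9 of the 10 members, in 15 windows, and FKBP4 had no entry. A run of 3 alternating units, written TTCNNGAANNTTC or its other-strand form GAANNTTCNNGAA, was found in the windows of HSP90AA1, HSP90AB1 and CHORDC1, against 0.608% of the 27305 genes in the table and 0.49% of its 35116 windows. A run of 2 units, GAANNTTC or TTCNNGAA, which every run of 3 also contains, was found in those 3 genes and in STIP1, against 16.2% of genes and 13.5% of windows. The 30-base stretches that hold the runs of 3 units follow, 5′ to 3′ on the strand of the gene. GAA and TTC units are in capitals where they belong to a run of 2 or 3, and other such letters are not. In CHORDC1 the runs of 3 that begin at -60, -55 and -50 from the start overlap, and form a longer unbroken array. The stretches are shown because these are the 3 members whose windows held a run of 3 units, and because their fold changes against nCas9 differed, at log2 0.46 to 1.00 for HSP90AA1 and 0.20 to 0.39 for HSP90AB1. The HSP90AB1 stretches lie at chr6:44247770-44247799 and chr6:44247823-44247852 (plus strand), that of CHORDC1 at chr11:90223083-90223112 (minus strand) and that of HSP90AA1 at chr14:102087104-102087133 (minus strand). A match describes the letters in these windows and not binding.
HSP90AA1: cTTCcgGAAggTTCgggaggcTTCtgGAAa
CHORDC1: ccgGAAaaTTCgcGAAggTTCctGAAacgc
HSP90AB1, upstream stretch: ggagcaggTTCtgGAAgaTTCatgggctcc
HSP90AB1, downstream stretch: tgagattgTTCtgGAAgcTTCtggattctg

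Total counts ran from 6790209 to 11200406 per library. The members held 446 to 33356 counts in any library, and their median coefficient of variation within a group was 3.06% to 5.41%. Counting error alone gives FKBP5, the member with the fewest counts, a variation of 3.66% to 4.74%, about as large as its median of 4.33% between libraries. For CDC37 it gives up to 3.04% beside 4.40%, for CHORDC1 up to 2.90% beside 5.41%, and for HSP90AA1 up to 0.952% beside 5.01%. The replicate 3 libraries of both Target-AID groups stood farthest from the other libraries of their group (chi-square per degree of freedom up to 20.7, against 1.40 in the closest pair of the series). Counts of members called in Target-AID are therefore also given without them, with the calls that were lost. All 10 genes typical of the HEK293 line had counts in every group, with a summed level of 560 to 795 CPM (read counts relative to the TMM-scaled library size) that was lowest in Target-AID, at 560 to 592. Liver markers summed to 2.04 to 3.59 CPM in Target-AID and to at most 1.41 elsewhere, and mesenchymal markers to 21.1 to 27.7 in GFP and at most 20.2 elsewhere. The liver sum rests on few genes at low counts. SERPINA1 held 87 counts in 8 of the 33 libraries, APOB 71 in 13 and APOA1 67 in 27, and the rest 1 to 28 counts each. Blood immune markers summed to 1.69 to 5.01 CPM, lowest in SpACE with HEKsite2 and highest in ABEmax with RNF2. The part of these markers in the results below was not tested.

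Per kilobase of exon, the cytosolic chaperones were above their co-chaperones in every group. In nCas9 with RNF2, HSP90AA1 stood at 379 CPM per kb and PTGES3 at 266. The median over the 11 groups was 887 CPM per kb for HSP90AB1 and 669 for HSP90AA1, followed by 318 for PTGES3, 240 for STIP1, 125 for AHSA1, 120 for FKBP4, 116 for CDC37 and 80.6 for TRAP1. CHORDC1 at 45.2 and FKBP5 at 6.42 were lowest. With the length of the principal transcript in place of all exons, CHORDC1 stood at 115, above TRAP1 at 103, and FKBP5 remained lowest at 17.3. The 10 genes together took 0.600% ± 0.022 (SD, n = 3) of all counts in nCas9 with RNF2, the lowest group, and 0.907% ± 0.040 (SD, n = 3) in Target-AID with HEKsite2, the highest. In bulk RNA of this kind, a change in the share of cells that express a gene and a change of RNA per cell cannot be told apart.

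**Figure D1:**
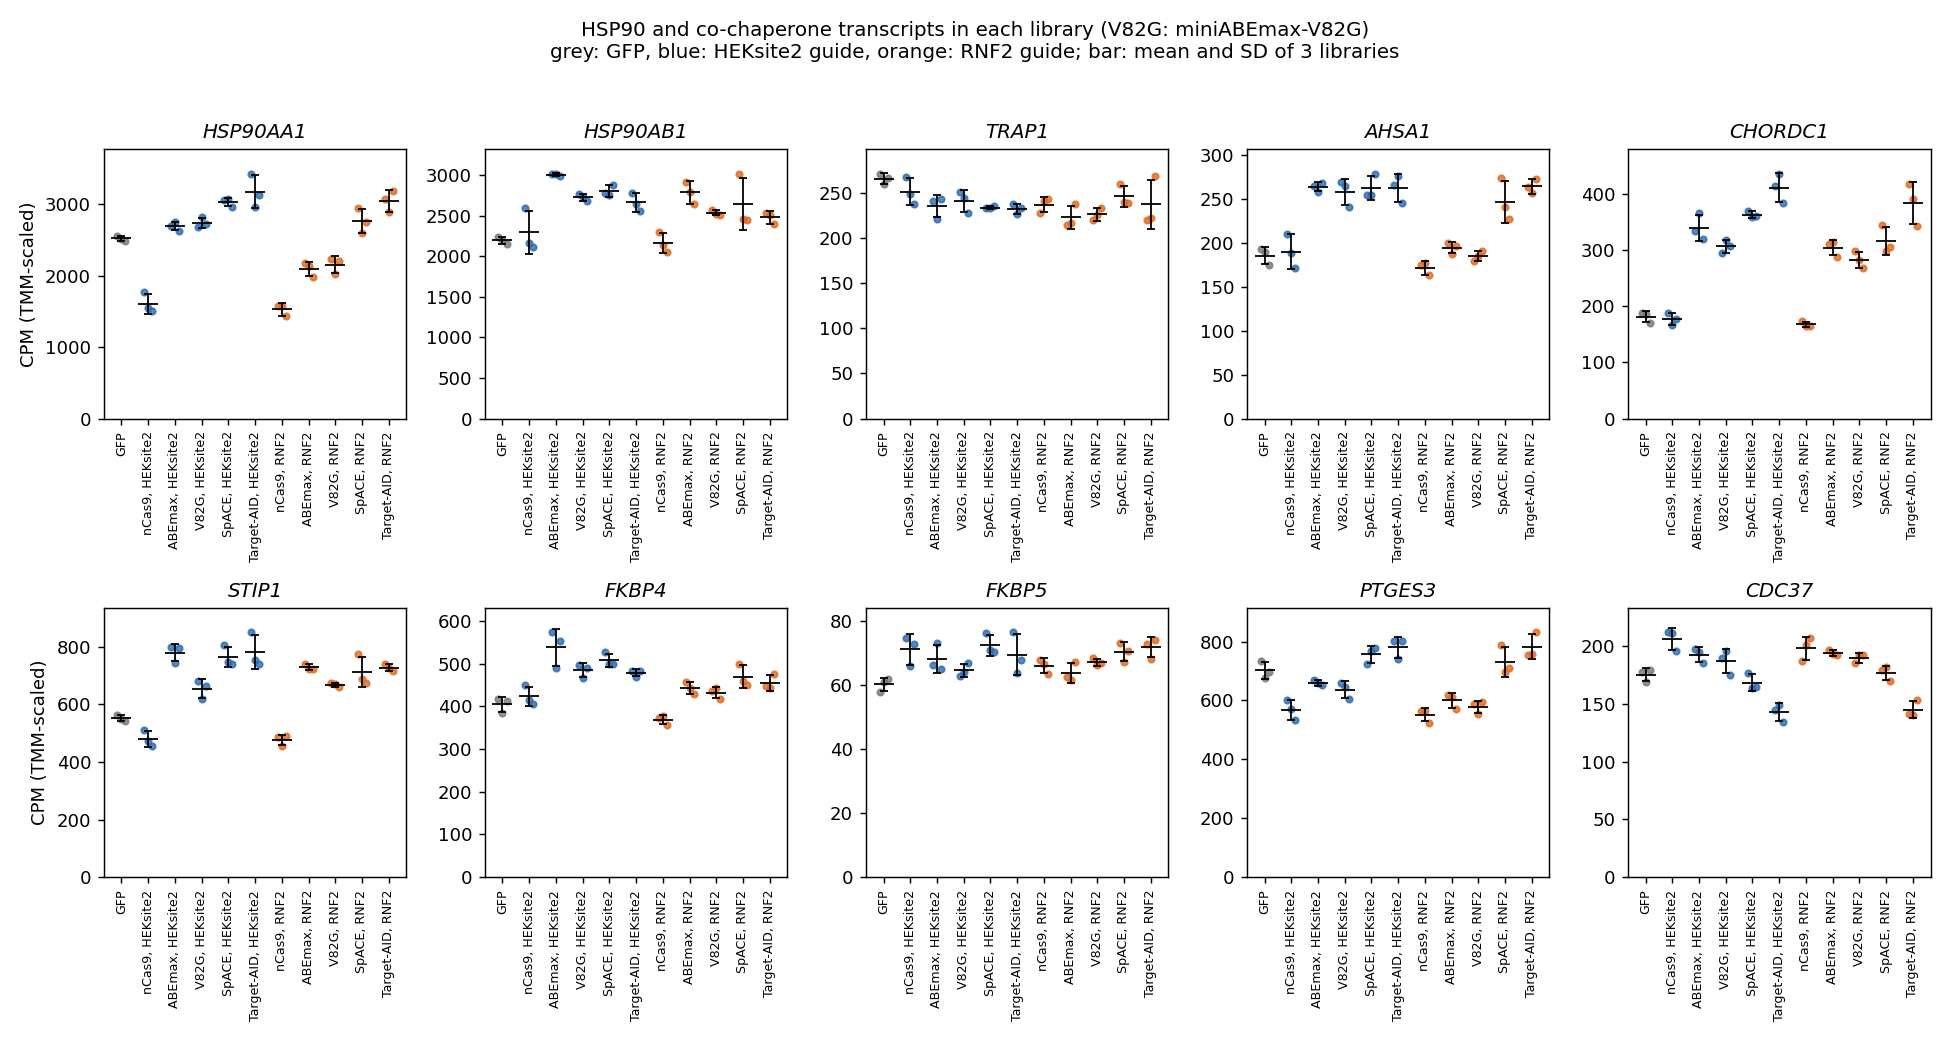
TMM-scaled CPM of the 10 genes in each of 33 libraries. The x axis gives the 11 groups (V82G is miniABEmax-V82G), points are libraries, and bars are the mean and SD of 3. HSP90AA1 lies between 1430 and 1772 in the nCas9 libraries and between 1984 and 3430 in all others, and CHORDC1 separates the editors from nCas9 and GFP.

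Compared with nCas9 of the same guide, 5 to 7 of the 10 members were higher in each editor and at most 1 was lower. With HEKsite2, 7 of the 10 members were higher and 0 lower in ABEmax, where 15.9% of all genes tested were called (8.31% higher, 7.55% lower). In miniABEmax-V82G 6 were higher and 0 lower, against 10.3% of all genes (5.02% higher, 5.32% lower). Target-AID had 7 higher and 1 lower, against 40.6% (21.5% higher, 19.1% lower), and SpACE 7 and 1, against 21% (10.7% higher, 10.2% lower). With RNF2, 5 were higher and 0 lower in ABEmax, against 11.2% of all genes (6.51% higher, 4.66% lower). The counts in miniABEmax-V82G were the same, against 12.6% (6.88% higher, 5.72% lower). Target-AID and SpACE each had 7 higher and 1 lower with this guide, against 35.2% (19.4% higher, 15.8% lower) and 14.7% (8.03% higher, 6.68% lower). Target-AID had 8 members called with each guide also without its replicate 3 libraries. The shares of all genes called in that fit are not given here, so this shows only that the member calls were kept. The median log2 fold change of the members ran from 0.17 for miniABEmax-V82G with RNF2 to 0.40 for Target-AID with RNF2, while that of all genes tested lay within 0.01 of 0. HSP90AA1, HSP90AB1, CHORDC1, STIP1 and FKBP4 rose in all 8 comparisons, AHSA1 in 6 and PTGES3 in 5, CDC37 fell in 4, and TRAP1 and FKBP5 were called in none. The 8 comparisons share 2 sets of nCas9 libraries, so those of 1 guide are not independent of each other.

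HSP90AA1, the inducible cytosolic HSP90 (GRCh38 chr14:102080738-102139699, minus strand), had levels of 1507, 1547 and 1772 CPM in the nCas9 libraries with HEKsite2 and 1430, 1577 and 1578 with RNF2. With HEKsite2 it stood at 2633, 2698 and 2753 in ABEmax, 2681, 2731 and 2818 in miniABEmax-V82G, 2962, 3063 and 3072 in SpACE and 2968, 3136 and 3430 in Target-AID. Every editor library thus lay above every nCas9 library of the same guide. The log2 fold change against nCas9 was 0.98 ± 0.065 (SE, adjusted p = 9.36e-16) in Target-AID, 0.91 ± 0.065 (adjusted p = 7.01e-14) in SpACE, 0.77 ± 0.065 (adjusted p = 1.56e-11) in miniABEmax-V82G and 0.74 ± 0.065 (adjusted p = 1.61e-11) in ABEmax. With RNF2 the libraries read 1984, 2132 and 2173 in ABEmax, 2022, 2201 and 2239 in miniABEmax-V82G, 2602, 2759 and 2944 in SpACE and 2886, 3077 and 3189 in Target-AID. Here the adenine editors were below the other editors without overlap, and their log2 fold changes were 0.46 (adjusted p = 3.4e-06) and 0.50 (adjusted p = 1.68e-06), against 0.86 (adjusted p = 6.41e-13) in SpACE and 1.00 (adjusted p = 6.39e-16) in Target-AID. Without the replicate 3 libraries of Target-AID, its log2 fold change was 0.99 with HEKsite2 and 0.97 with RNF2. In the order of group means, GFP at 2524 ± 35 CPM (SD, n = 3) lay above the adenine editors with RNF2 and both nCas9 groups and below all others, without overlap on either side. The libraries of the 3 highest groups, SpACE with HEKsite2 and both Target-AID groups, overlapped. HSP90AA1 shares 197 exon bases with WDR20 on the other strand, whose group means were 20.4 to 24.9 CPM and which was not called in any editor against nCas9.

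HSP90AB1, the constitutive paralog (chr6:44246166-44253888, plus strand), had smaller log2 fold changes. Its nCas9 libraries read 2120, 2170 and 2598 CPM with HEKsite2 and 2052, 2142 and 2297 with RNF2, and those of GFP 2153, 2199 and 2243. ABEmax with HEKsite2 had the highest mean of the 11 groups, with libraries at 2988, 3013 and 3020, and ABEmax with RNF2 read 2644, 2798 and 2923. SpACE with HEKsite2 had a mean of 2805 ± 71 (SD, n = 3), which lay above that of ABEmax with RNF2 by less than the spread, and a SpACE library with RNF2 reached 3014. The rise over nCas9 was 0.39 ± 0.069 (adjusted p = 7.98e-05) and 0.37 ± 0.069 (adjusted p = 0.000298) on the log2 scale in ABEmax. In the other editors it was 0.20 to 0.29 with adjusted p from 0.00209 to 0.0226. The libraries of Target-AID with HEKsite2, at 2562, 2649 and 2785 CPM, overlapped those of nCas9, and the call in both Target-AID comparisons was lost when the fit held only the groups compared (adjusted p = 0.0555 and 0.109). Calls of this gene also rested on single libraries. The HEKsite2 calls were lost without nCas9 replicate 2 or 3 in miniABEmax-V82G (adjusted p = 0.101 and 0.104) and in Target-AID (0.0742 and 0.0907), and there also without Target-AID replicate 1 (0.0554). With RNF2 the Target-AID and miniABEmax-V82G calls were lost without replicate 1 or 2 of the editor or replicate 2 or 3 of nCas9 (adjusted p = 0.0575 to 0.115), and that of SpACE without its replicate 1 (0.0717). Most neighbours in the order of the 11 group means overlapped.

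The balance of the paralogs therefore differed between groups. Reads of HSP90AA1 per read of HSP90AB1 in the same library stood at 1.15 ± 0.0084 (SD, n = 3) in GFP, 0.702 ± 0.017 and 0.707 ± 0.026 in nCas9 with HEKsite2 and RNF2, and 1.19 ± 0.062 and 1.23 ± 0.092 in Target-AID. SpACE had 1.08 ± 0.048 and 1.05 ± 0.074. The adenine editors lay between, with 0.896 ± 0.015 and 0.752 ± 0.0093 in ABEmax and 1.01 ± 0.034 and 0.849 ± 0.041 in miniABEmax-V82G. HSP90AA1 reads were fewer than HSP90AB1 reads in all nCas9 and ABEmax libraries and more numerous in all GFP and Target-AID libraries. The ratio is of reads not divided by length, so the level of a group is not a ratio of molecules. Reads of near-copies were few: HSP90AB4P held 0 to 9 counts and HSP90B2P 6 to 19 counts in a library, although how the authors assigned reads shared with such copies is not given in the sources used here.

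**Figure D2:**
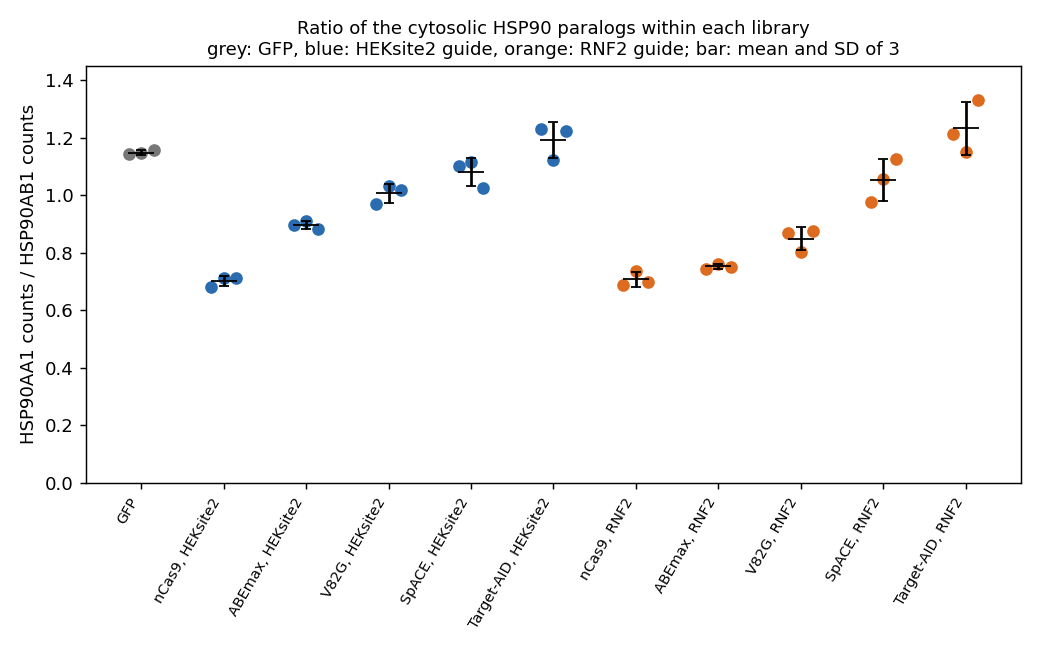
HSP90AA1 counts divided by HSP90AB1 counts in each library, for the 11 groups on the x axis. Points are libraries and bars the mean and SD of 3. The nCas9 groups sit near 0.70, GFP at 1.15 and Target-AID at 1.19 and 1.23.

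TRAP1, the mitochondrial HSP90 (chr16:3651639-3717597, minus strand), was not called in any editor against nCas9. Its group means ran only from 223 CPM in ABEmax with RNF2 to 266 in GFP, and each overlapped its neighbour in the order. The log2 fold changes against nCas9 were -0.11 to 0.06, and the 95% intervals reached from -0.24 to 0.18. True differences within these intervals remain compatible with these libraries. TRAP1 shares 1531 exon bases with DNASE1 on the other strand, which held 6.54 to 7.99 CPM in group means.

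CHORDC1 (morgana, a co-chaperone with zinc-binding CHORD domains, chr11:90201160-90223364, minus strand) had the largest fold change of the set against nCas9 in each of the 8 comparisons. Its libraries read 166, 177 and 189 CPM in nCas9 with HEKsite2, 164, 165 and 173 in nCas9 with RNF2 and 170, 186 and 187 in GFP. These 3 control groups overlapped. The editors with HEKsite2 read 320, 334 and 366 in ABEmax, 294, 308 and 317 in miniABEmax-V82G, 358, 361 and 370 in SpACE and 385, 413 and 436 in Target-AID. With RNF2 they read 288, 311 and 314 in ABEmax, 268, 282 and 298 in miniABEmax-V82G, 299, 306 and 345 in SpACE and 343, 390 and 417 in Target-AID. No editor library was as low as the highest control library. Against nCas9, CHORDC1 was 2.32-fold higher in Target-AID with HEKsite2 (log2 1.21 ± 0.069, adjusted p = 4.46e-18) and 2.29-fold higher with RNF2 (adjusted p = 9.12e-18). It was 2.05-fold and 1.89-fold higher in SpACE (adjusted p = 7.86e-15 and 4.73e-13), 1.92-fold and 1.82-fold in ABEmax, and 1.73-fold and 1.69-fold in miniABEmax-V82G. Without the replicate 3 libraries of Target-AID the log2 fold changes there were 1.26 and 1.27.

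AHSA1, the activator of the HSP90 ATPase (chr14:77457870-77469474, plus strand), rose in every editor with HEKsite2 by nearly the same amount, at log2 fold changes of 0.44 to 0.47 and adjusted p of 3.73e-07 to 1.45e-05. Its libraries read 172, 188 and 211 CPM in nCas9 and 241 to 279 in the 4 editors. With RNF2 the editors separated. nCas9 read 163, 175 and 177, ABEmax 188, 196 and 200, and miniABEmax-V82G 180, 185 and 191, while SpACE read 227, 241 and 274 and Target-AID 257, 264 and 273. The rise was called in Target-AID (0.62 ± 0.067, adjusted p = 1.06e-09) and SpACE (0.53 ± 0.067, adjusted p = 2.77e-07). In ABEmax it was 0.18 with an interval of 0.05 to 0.32 (adjusted p = 0.0754), and in miniABEmax-V82G 0.11 with an interval of -0.03 to 0.25 (adjusted p = 0.311). The value for ABEmax passed the threshold when the fit held only the groups compared (adjusted p = 0.0299), with total counts (0.0349) and without the replicate 3 libraries of Target-AID (0.0474). AHSA1 shares 83 exon bases with VIPAS39 on the other strand, whose group means were 24.2 to 33.8 CPM and which was called against nCas9 in ABEmax with both guides (log2 0.27 and 0.32). As the strand setting of the counting is not given in the sources used here, reads of the shared bases cannot be told apart.

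STIP1, the adaptor between HSP70 and HSP90 (chr11:64185272-64204543, plus strand), rose in all 8 comparisons. It read 455, 472 and 511 CPM in nCas9 with HEKsite2 and 456, 486 and 489 with RNF2, 541, 551 and 562 in GFP, and 618 to 850 in the 24 editor libraries. The editors did not overlap either control. With HEKsite2 the log2 fold change against nCas9 was 0.70 in ABEmax (adjusted p = 6.92e-12) and in Target-AID (adjusted p = 1.38e-12), 0.67 in SpACE (adjusted p = 3.73e-11) and 0.45 in miniABEmax-V82G (adjusted p = 1.53e-06). With RNF2 it was 0.61, 0.61, 0.58 and 0.49 in the same order.

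CDC37, the adaptor for kinases (chr19:10391134-10420121, minus strand), went the other way. Its Target-AID libraries read 134, 145 and 150 CPM with HEKsite2 and 140, 142 and 153 with RNF2. The nCas9 libraries read 196, 212 and 212 and 187, 201 and 207, and GFP 169, 178 and 180. Target-AID thus lay below both controls, without overlap. Against nCas9 the fall was 0.693-fold with HEKsite2 (log2 -0.53 ± 0.056, adjusted p = 6.7e-10) and 0.732-fold with RNF2 (log2 -0.45 ± 0.056, adjusted p = 3.62e-08), and without the replicate 3 libraries -0.48 and -0.49. SpACE fell by 0.29 on the log2 scale with HEKsite2 (adjusted p = 0.00017) and by 0.16 with RNF2 (adjusted p = 0.0401). The latter call was lost with no filter on low counts (adjusted p = 0.202), without nCas9 replicate 2 or 3 (0.112 and 0.184) and without any of the 3 SpACE libraries (0.0514 to 0.167). ABEmax and miniABEmax-V82G had values of -0.14 to -0.03 that were not called. In the order of group means the Target-AID groups overlapped each other and no other group.

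The immunophilins FKBP4 (chr12:2794953-2805423, plus strand) and FKBP5 (chr6:35573585-35728583, minus strand), which bind the same end of HSP90, are described side by side. FKBP4 was higher than nCas9 in all 8 comparisons, by 0.18 to 0.35 on the log2 scale with adjusted p of 3.06e-05 to 0.0227. Its libraries read 405, 415 and 449 CPM in nCas9 with HEKsite2 against 466 to 573 in the editors, and 357, 372 and 377 with RNF2 against 417 to 499. FKBP5, a well-known target of the glucocorticoid receptor, was at 58.0 to 76.6 CPM in all 33 libraries and was not called in any editor against nCas9, with log2 fold changes of -0.14 to 0.12 whose 95% intervals reached from -0.27 to 0.25. The smallest FKBP4 values, Target-AID and miniABEmax-V82G with HEKsite2, lost their calls with no filter on low counts (adjusted p = 0.0597 and 0.0518). They were also lost without nCas9 replicate 3 (0.0734 and 0.111), and in miniABEmax-V82G without nCas9 replicate 2 (0.0916) or its own replicate 1 or 3 (0.0736 and 0.0763).

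PTGES3, the p23 co-chaperone (chr12:56663341-56688408, minus strand), had its largest log2 fold changes against nCas9 in Target-AID and SpACE. It read 534, 570 and 600 CPM in nCas9 with HEKsite2 and 525, 565 and 565 with RNF2, against 740, 801 and 802 and 756, 759 and 832 in Target-AID. The log2 fold change was 0.46 (adjusted p = 5.21e-08) and 0.50 (adjusted p = 9e-09) in Target-AID, and 0.41 (adjusted p = 2.2e-06) and 0.40 (adjusted p = 4.17e-06) in SpACE. ABEmax rose by 0.22 with HEKsite2 (adjusted p = 0.00994, and 0.0718 without nCas9 replicate 3) and had 0.12 with RNF2 (adjusted p = 0.187, and 0.0497 with total counts). miniABEmax-V82G had 0.16 (adjusted p = 0.0711) and 0.07 (adjusted p = 0.492). The value with HEKsite2 passed the threshold in DESeq2 (adjusted p = 0.0448), with total counts (0.025), with the replicate block (0.0478), without nCas9 replicate 1 (0.042) and without the replicate 3 libraries of Target-AID (0.0336).

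**Figure D3:**
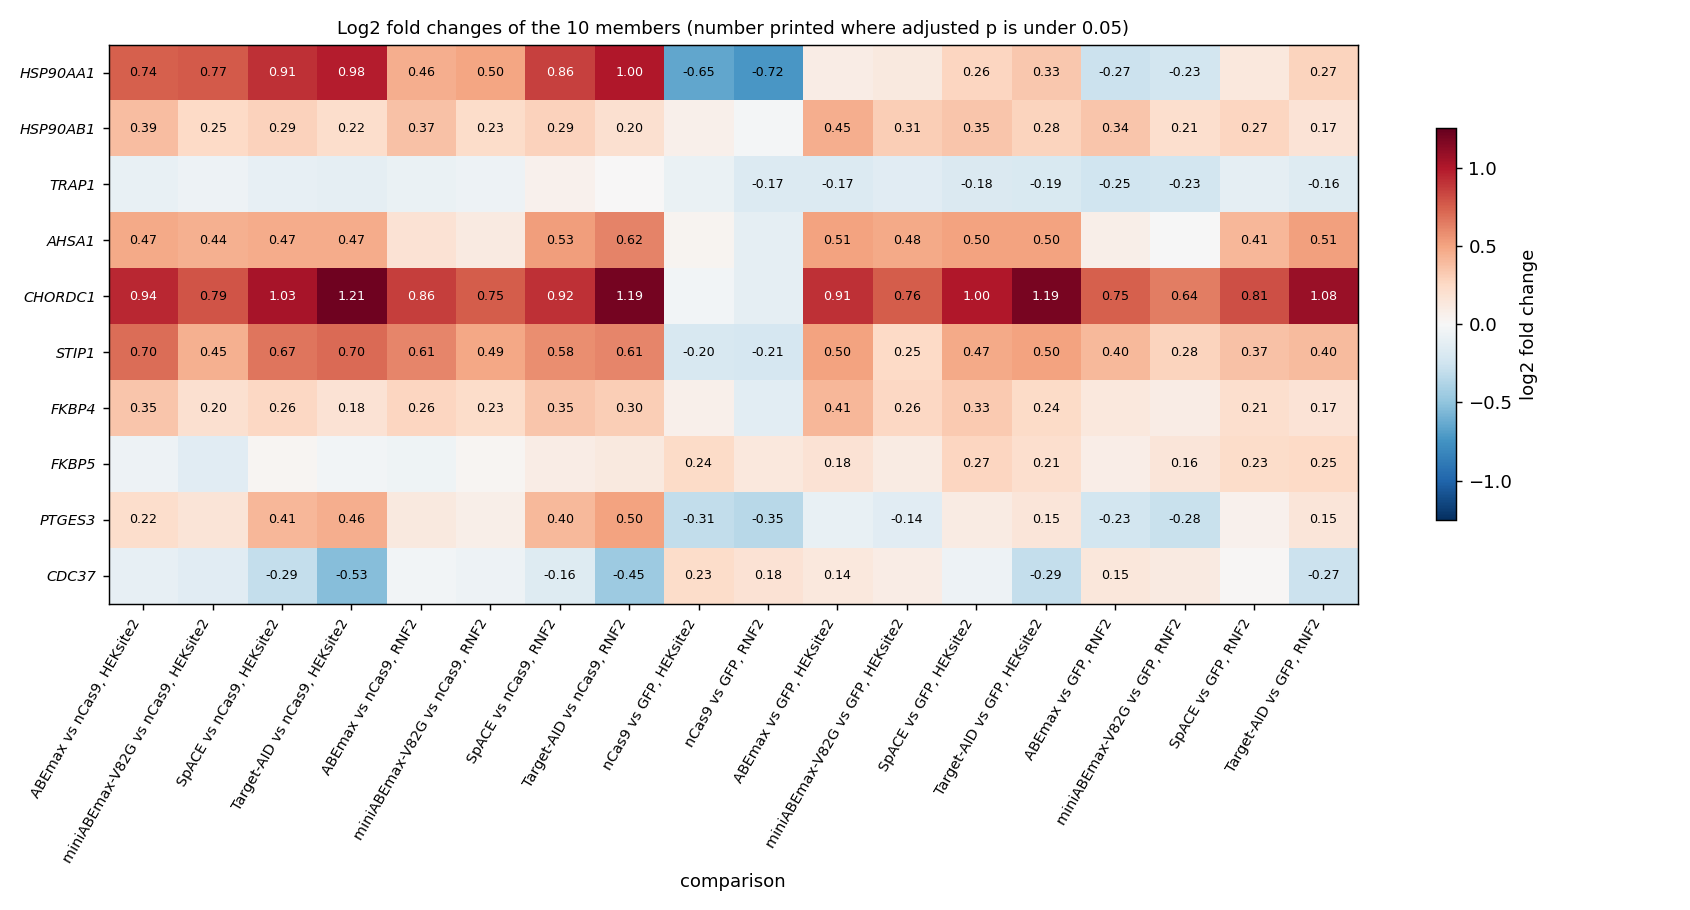
Log2 fold changes of the 10 genes (rows) in the 18 comparisons of an editor or nCas9 with its control (columns). Red is higher and blue lower, and a number is printed where the adjusted p is under 0.05. HSP90AA1 is 0.46 to 1.00 above nCas9 in all editors and 0.65 and 0.72 lower in nCas9 than in GFP.

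The controls themselves differed. Between nCas9 with HEKsite2 and GFP, 2 members were higher and 3 lower, against 38.4% of all genes called, and with RNF2 1 was higher and 4 lower, against 41.5%. The share of members called was thus near that of all genes. HSP90AA1 was lower in nCas9 by 0.65 ± 0.065 (log2 -0.65, adjusted p = 2.85e-10) and 0.72 ± 0.065 (log2 -0.72, adjusted p = 1.48e-11), where GFP read 2492, 2518 and 2561 CPM and no nCas9 library was above 1772. PTGES3 was lower with log2 fold changes of -0.31 and -0.35 (adjusted p = 6.34e-05 and 7.99e-06), and STIP1 with -0.20 and -0.21 (adjusted p = 0.00625 and 0.00414, the former 0.0506 without nCas9 replicate 3). CDC37 was higher by 0.23 and 0.18 (adjusted p = 0.000826 and 0.00955), FKBP5 by 0.24 with HEKsite2 (adjusted p = 0.00299), and TRAP1 was at -0.17 with RNF2 (adjusted p = 0.03). The RNF2 call of CDC37 was lost without GFP replicate 2 or nCas9 replicate 3 (0.0555 and 0.0688), and that of TRAP1 without GFP replicate 1 or 3 or nCas9 replicate 1 (0.0907, 0.0615 and 0.127). CHORDC1, AHSA1, HSP90AB1 and FKBP4 were called with neither guide. FKBP4 with RNF2 was at -0.13 (adjusted p = 0.058) and passed the threshold in DESeq2 (0.0361), with the replicate block (0.0328), with only the groups compared (0.0295), without GFP replicate 2 (0.0325) and without the replicate 3 libraries of Target-AID (0.0399). With HEKsite2 it was at 0.06 (adjusted p = 0.404) and passed with total counts (0.14, adjusted p = 0.0263).

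Against GFP the split was more mixed. With HEKsite2, 7 members were higher and 1 lower in ABEmax (46.8% of all genes were called), 5 and 1 in miniABEmax-V82G (39.8%), 8 and 2 in Target-AID (46.4%) and 7 and 1 in SpACE (36.6%). With RNF2 the counts were 4 and 3 in ABEmax (49.6%), 4 and 3 in miniABEmax-V82G (47.0%), 8 and 2 in Target-AID (46.2%), and 6 and 0 in SpACE (37.9%). Without the replicate 3 libraries of Target-AID, 9 and 8 of the 10 members were called in Target-AID with HEKsite2 and RNF2. The shares of all genes called in that fit are not given here, and these counts are not read as a result about the members. The calls lost were PTGES3 with both guides (adjusted p = 0.0551 and 0.126) and FKBP4 with RNF2 (0.0542). CHORDC1, STIP1 and HSP90AB1 were higher than GFP in all 8 comparisons, CHORDC1 by 0.64 to 1.19, STIP1 by 0.25 to 0.50 and HSP90AB1 by 0.17 to 0.45. HSP90AA1 was higher than GFP in Target-AID with HEKsite2 (0.33, adjusted p = 4.39e-05) and RNF2 (0.27, adjusted p = 0.000557) and in SpACE with HEKsite2 (0.26, adjusted p = 0.00118). It was lower in ABEmax and miniABEmax-V82G with RNF2 (-0.27 and -0.23, adjusted p = 0.00067 and 0.00356), and the other 3 comparisons were not called. Those 3 were called higher with total counts (adjusted p = 0.00583 in ABEmax and 0.00437 in miniABEmax-V82G with HEKsite2, and 0.00236 in SpACE with RNF2), and the first 2 also with only the groups compared (0.0435 and 0.0243). CDC37 was below GFP in Target-AID (-0.29 and -0.27, adjusted p = 3.38e-05 and 9.73e-05) and above it in ABEmax (0.14 and 0.15, adjusted p = 0.045 and 0.0269). PTGES3 was higher than GFP in Target-AID (0.15 with each guide, adjusted p = 0.0312 and 0.029) and was lower in ABEmax with RNF2 and in miniABEmax-V82G with both guides (-0.28 to -0.14). TRAP1 was lower than GFP in 6 of the 8 comparisons, by 0.16 to 0.25 on the log2 scale, and FKBP5 higher in 6, by 0.16 to 0.27. Small differences here rested on single libraries. The CDC37 calls in ABEmax were lost without GFP replicate 2 (adjusted p = 0.152 and 0.119), or without ABEmax replicate 1 (0.144 and 0.0706), and with HEKsite2 also without GFP replicate 1 (0.0519) or ABEmax replicate 2 (0.0987). The PTGES3 calls in Target-AID held in 7 and 8 of the 14 settings tried. They were lost with no filter on low counts (adjusted p = 0.157 and 0.12), with only the groups compared (0.0542 and 0.137), without GFP replicate 2 (0.113 and 0.108) or 3 (0.0725 and 0.0691) and without Target-AID replicate 3 of the same guide (0.101 and 0.152), and with HEKsite2 also without Target-AID replicate 1 (0.0986). That of PTGES3 in miniABEmax-V82G with HEKsite2 was lost with no filter (0.068), without GFP replicate 1 or 3 (0.205 and 0.0774) and without miniABEmax-V82G replicate 2 or 3 (0.0815 and 0.206). FKBP4 in Target-AID with RNF2 (0.17, adjusted p = 0.0145) was lost with no filter (0.0782), with only the groups compared (0.0862), and without GFP replicate 2 (0.0886) or Target-AID replicate 3 (0.0663). FKBP5 in miniABEmax-V82G with RNF2 (0.16, adjusted p = 0.049) held in 5 of 14 settings, and was lost in DESeq2 (0.0936), with RLE size factors (0.0513), with no filter (0.184) and without any 1 of the 6 libraries (0.0577 to 0.16). In ABEmax with HEKsite2 it held in 10 of 14, with losses in DESeq2 (0.0503), with no filter (0.136), and without GFP replicate 1 (0.0908) or ABEmax replicate 2 (0.168). In Target-AID with HEKsite2 it was lost with no filter (0.0591) and without Target-AID replicate 1 (0.13). TRAP1 was lost without GFP replicate 1 in ABEmax and SpACE with HEKsite2 and Target-AID with RNF2 (0.0732, 0.0626 and 0.0929), without ABEmax replicate 2 in the first (0.138), and in the last also with only the groups compared (0.108) and without GFP replicate 3 or Target-AID replicate 1 or 2 (0.0612, 0.184 and 0.163). The HSP90AB1 call in SpACE with RNF2 was lost without SpACE replicate 1 (0.0618), and that in Target-AID with RNF2 without GFP replicate 2 or 3 or Target-AID replicate 1 or 2 (0.0653 to 0.0971). These comparisons and those of nCas9 share the GFP libraries.

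The scale of the comparisons with GFP depended on the normalisation. With total counts in place of TMM, the median of all genes in the comparisons with GFP moved by up to 0.138 on the log2 scale (ABEmax with RNF2). The members then split into 8 higher and 0 lower in ABEmax, miniABEmax-V82G and SpACE with HEKsite2, and 8 and 0 in SpACE with RNF2. ABEmax and miniABEmax-V82G with RNF2 had 7 and 1 and 6 and 1, and both Target-AID groups 8 and 1. For nCas9 against GFP the counts became 3 and 2 with HEKsite2 and 2 and 2 with RNF2. The shares of all genes called higher or lower with total counts are not given here. These counts thus show how the calls depend on scaling and are not read as a result about the members. The TRAP1 calls against GFP were all lost under that scaling, as were HSP90AA1 in miniABEmax-V82G with RNF2 (-0.11, adjusted p = 0.107), PTGES3 in ABEmax with RNF2 (-0.10, adjusted p = 0.091) and in miniABEmax-V82G with HEKsite2 (-0.07, adjusted p = 0.26), and STIP1 in nCas9 against GFP (-0.13, adjusted p = 0.0546, and -0.10, adjusted p = 0.13). No called direction of a member turned.

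Comparing the editors with each other, with both guides weighted equally, left the controls out. Target-AID had 4 members higher and 2 lower than ABEmax (40.5% of all genes were called), 5 and 1 against miniABEmax-V82G (34.8%), and 1 and 1 against SpACE (32.0%). SpACE had 3 higher and 1 lower than ABEmax (21.3%) and 5 and 1 against miniABEmax-V82G (5.95%). ABEmax and miniABEmax-V82G differed in 1 member (5.08%). HSP90AA1 was higher in Target-AID than in ABEmax by 0.39 ± 0.046 (adjusted p = 5.1e-09) and than in miniABEmax-V82G by 0.36 ± 0.046 (adjusted p = 4.89e-08). Its difference from SpACE was 0.10 with an interval of 0.01 to 0.20 (adjusted p = 0.077), and passed the threshold with the replicate block (0.0454), with total counts (0.0113) and without SpACE replicate 1 of RNF2 (0.0373) or Target-AID replicate 2 of HEKsite2 (0.0421). PTGES3 gave 0.31 (adjusted p = 8.97e-08) and 0.36 (adjusted p = 3.88e-09) against the adenine editors and 0.07, interval -0.01 to 0.16, against SpACE (adjusted p = 0.186, and 0.0343 with total counts). CHORDC1 was higher in Target-AID than in each other editor, by 0.30 against ABEmax, 0.43 against miniABEmax-V82G and 0.23 against SpACE (adjusted p = 0.000193 for the last). CDC37 was lower in Target-AID than in each other editor, with log2 fold changes of -0.42, -0.39 and -0.26 in the same order (adjusted p = 2.14e-11, 2.79e-10 and 2.15e-06). STIP1 was the member that differed between ABEmax and miniABEmax-V82G, by 0.19 ± 0.042 (adjusted p = 0.00353). HSP90AB1 was at 0.14 there (adjusted p = 0.089) and passed with total counts (0.039), with the replicate block (0.0329), with only the groups compared (0.00633) and without the replicate 3 libraries of Target-AID (0.0459). The CDC37 call between SpACE and miniABEmax-V82G (-0.13, adjusted p = 0.0451) was lost with no filter (0.165) and without any 1 of 10 of the 12 libraries (0.0504 to 0.122), and that of STIP1 (0.16, adjusted p = 0.017) without SpACE replicate 1 of RNF2 (0.0816) or miniABEmax-V82G replicate 2 of HEKsite2 (0.0568).

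In the main fit, members were called between the guides only in ABEmax and miniABEmax-V82G. In nCas9 none was called between RNF2 and HEKsite2, against 2.07% of all genes, with 2 members at an unadjusted p under 0.05. DESeq2 called 1, FKBP4 (log2 -0.20, adjusted p = 0.0182), which also passed with the replicate block (0.0252) and without the replicate 3 libraries of Target-AID (0.029). In ABEmax 3 were lower with RNF2, against 2.26% of all genes called (1.79% lower). These were AHSA1 at -0.44 ± 0.067 (adjusted p = 4.37e-05), HSP90AA1 at -0.36 ± 0.065 (adjusted p = 0.000416) and FKBP4 at -0.28 ± 0.058 (adjusted p = 0.00226). In miniABEmax-V82G 2 were lower, against 9.94% called (5.26% lower): AHSA1 at -0.48 (adjusted p = 2.13e-05) and HSP90AA1 at -0.35 (adjusted p = 0.000824). FKBP4 was at -0.17 there (adjusted p = 0.0579) and passed in DESeq2 (0.0298), with the replicate block (0.0304), with only the groups compared (0.00956) and without the replicate 3 libraries of Target-AID (0.0288). PTGES3 passed with only the groups compared (-0.13, adjusted p = 0.0366). None was called in Target-AID (0% of all genes, and 0 members at an unadjusted p under 0.05) or in SpACE (0.0411%, and 2 members), nor in DESeq2. The test of the difference itself, the editor effect over nCas9 with RNF2 minus that with HEKsite2, called no member in any editor, in edgeR or DESeq2. It called 0%, 0.0137%, 0.164% and 0.0274% of all genes in ABEmax, miniABEmax-V82G, Target-AID and SpACE, and 2, 2, 0 and 0 members had an unadjusted p under 0.05. Those were HSP90AA1 (-0.29 in ABEmax and -0.27 in miniABEmax-V82G) and AHSA1 (-0.29 and -0.33), with adjusted p of 0.706 to 1.

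The genes whose 11 group means of log2 CPM were most like those of a member are given as a description. For CHORDC1 they were HSPH1, an HSP110 chaperone, with a Pearson r of 0.995, EFCAB7 with 0.983 and BAG3, an HSP70 co-chaperone, with 0.974. For STIP1 they were PPID, a cyclophilin co-chaperone of HSP90 (0.989), DNAJA1, an HSP40 (0.985), and DIAPH3 (0.978). PTGES3 was most like HSPA4, another HSP110 relative (0.982), then ZNF254 (0.968) and BRIP1 (0.963). HSP90AA1 was most like RNF216 (0.973), then EDARADD (0.972) and GTF3C3 (0.969). For the rest only the closest gene is given. HSP90AB1 was most like CIR1 (0.975), AHSA1 like C17orf53 (0.975), FKBP4 like SPATS2 (0.961), CDC37 like PPP1R10 (0.959), TRAP1 like TMEM261 (0.947) and FKBP5 like FBXW4 (0.918). The 11 points share libraries, depth scaling and controls. Each name comes from the top of 14613 genes, less the members, those of low level and those with LOC, LINC or clone names. No test therefore goes with it.

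Of 39 other HSP90 family and co-chaperone genes, 37 were in the table and 35 were tested. They split in direction. With HEKsite2, 9 rose and 2 fell in ABEmax, 7 and 0 in miniABEmax-V82G, 9 and 11 in Target-AID and 8 and 4 in SpACE, where 15.9%, 10.3%, 40.6% and 21% of all genes were called. With RNF2 the counts were 7 and 0, 4 and 2, 7 and 4, and 6 and 2 in the same order, against 11.2%, 12.6%, 35.2% and 14.7%. Their median log2 fold change stayed between -0.02 and 0.06. PPID, CACYBP (a partner of SUGT1 and of ubiquitin ligases) and SUGT1 (a co-chaperone of immune receptors and kinetochore assembly) rose in all 8 comparisons, at log2 fold changes in Target-AID with HEKsite2 of 0.55, 0.44 and 0.46 (adjusted p = 1.58e-08, 6.01e-08 and 6.68e-07). TTC1 rose in Target-AID with both guides, by 0.56 and 0.65 (adjusted p = 6.33e-08 and 3.43e-09), and was not called in the other 6 comparisons, at -0.13 to -0.02. HSP90B1, the HSP90 of the endoplasmic reticulum, fell in Target-AID and SpACE with HEKsite2 (-0.38 and -0.26). PPP5C, the phosphatase that acts on HSP90 clients and CDC37, fell in 6 of the 8 comparisons, by 0.15 to 0.23 on the log2 scale. Between nCas9 and GFP, 12 of the 35 rose and 5 fell with HEKsite2 (38.4% of all genes were called) and 11 and 3 with RNF2 (41.5%), among them the tumour suppressor gene FLCN (0.79, adjusted p = 3.4e-11, and 0.93, adjusted p = 2.72e-13).

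**Figure D4:**
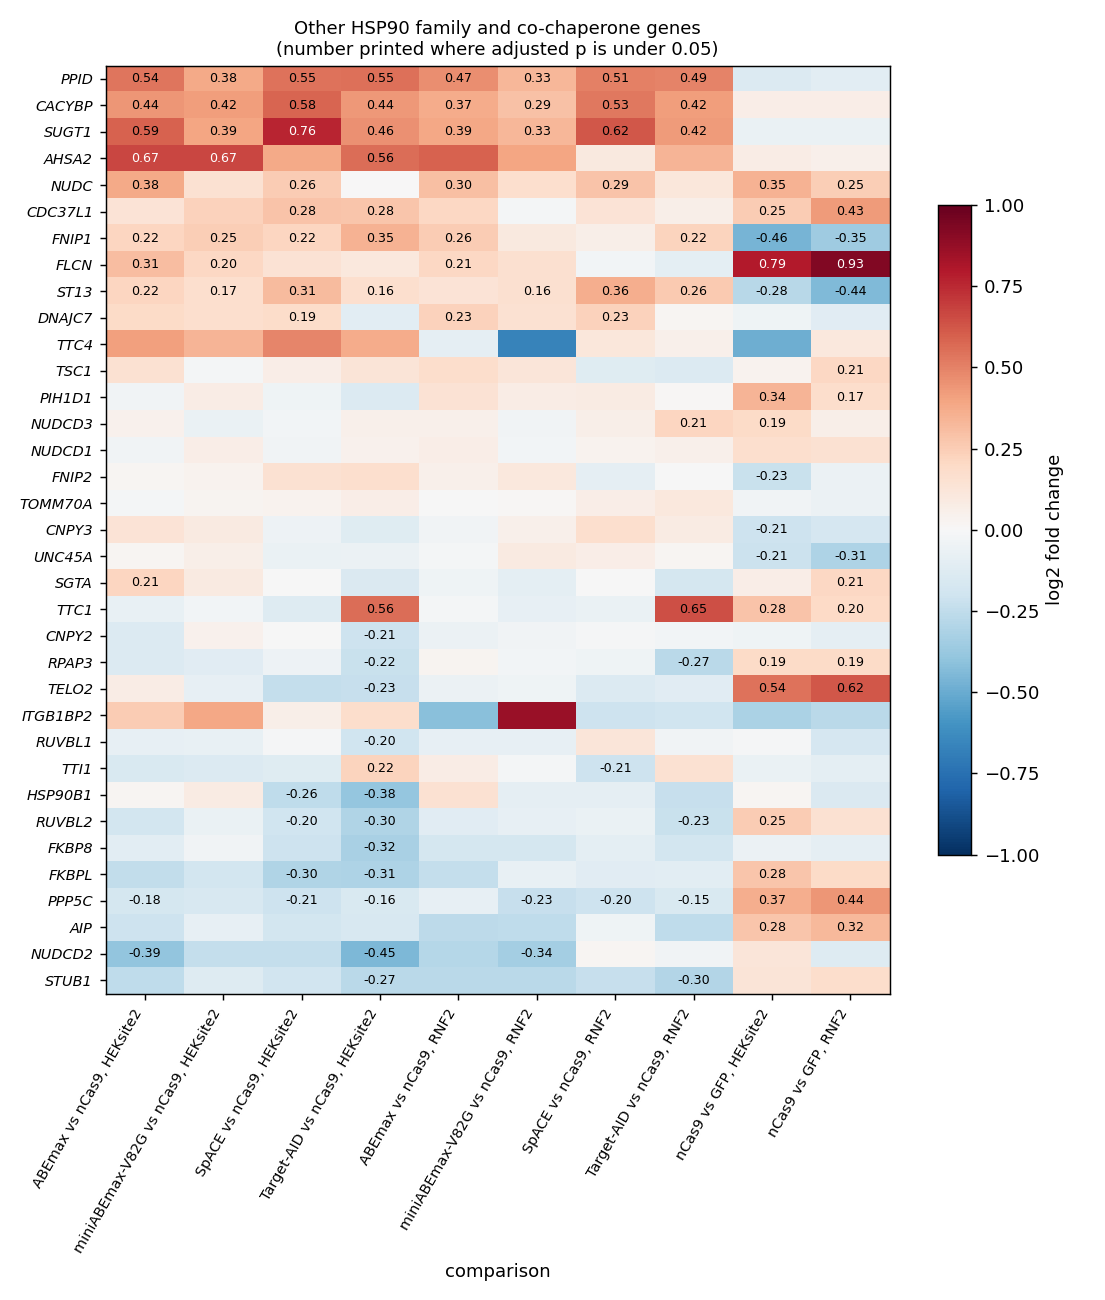
Log2 fold changes of 35 other HSP90 family and co-chaperone genes (rows, ordered by their median) in the 8 comparisons of an editor with nCas9 and the 2 of nCas9 with GFP (columns). A number is printed where the adjusted p is under 0.05. PPID, CACYBP and SUGT1 are red in all 8 editor columns, and Target-AID with HEKsite2 has 9 rows called higher and 11 called lower.

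The HSP70 and HSP40 partners, which hand clients to STIP1, included genes with larger fold changes than any of the 10 members. Of 20 tested, 13, 11, 11 and 12 rose with HEKsite2 in ABEmax, miniABEmax-V82G, Target-AID and SpACE, and 10, 11, 13 and 11 with RNF2, and 2 fell in each Target-AID comparison and none in the other 6. Of all genes, 8.31%, 5.02%, 21.5% and 10.7% rose with HEKsite2 and 6.51%, 6.88%, 19.4% and 8.03% with RNF2. Their median log2 fold change was 0.26 to 0.47. In Target-AID with HEKsite2 the HSP40 gene DNAJB1 rose by 3.70 ± 0.086 (adjusted p = 1.25e-31), the inducible HSP70 gene HSPA1B by 3.39 ± 0.064 (adjusted p = 8.37e-35), BAG3 by 2.37 ± 0.081 (adjusted p = 9.75e-26) and HSPH1 by 1.83 ± 0.078 (adjusted p = 3.38e-22) on the log2 scale. In ABEmax with the same guide they rose by 2.12, 2.20, 1.81 and 1.31. HSPA1B has a near-identical copy, HSPA1A, with which its reads may be shared. Between nCas9 and GFP, 9 of the 20 fell with each guide and 2 and 3 rose, where 38.4% and 41.5% of all genes were called in either direction. HSPA1B was lower in nCas9 with log2 fold changes of -1.17 and -1.19 (adjusted p = 4.7e-18 and 2.12e-18), in the direction of HSP90AA1.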

How the data were processed

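The authors deposited 1 table of unnormalised read counts, with a row for each gene symbol. Per the submitters' processing notes, STAR, GATK 3.8.1, Picard 2.7 and GRCh38 (hg38) were used, with no roles named, and the labels' protocols give total RNA and a stranded kit. For the counting, the tool, strand setting and annotation used were not given in the sources used here. Each column was matched to 1 library by construct, guide and replicate. Genes were filtered with filterByExpr and scaled by TMM. All 33 libraries were fitted with 11 group means (22 residual degrees of freedom) in edgeR 4.0.16 (R 4.3.3, limma 3.58.1) by two-sided quasi-likelihood tests of 33 comparisons, with Benjamini-Hochberg adjustment over all 14613 genes and a threshold of 0.05. The method was tested on simulated data. SEs and 95% intervals come from that fit. As no label says that libraries of a group came from separate cultures, p-values measure the spread between these libraries, which may be technical. Every replicate pair differed by more than sampling noise. No label says what a replicate number stands for, and every same-numbered pair correlated above 0.1 in 3 of 23 comparisons (ABEmax with nCas9 for RNF2, ABEmax with GFP for HEKsite2, and the guides in Target-AID). The libraries were therefore not treated as paired, and in those 3 the replicate block changed no call of a member. The members and gene lists were chosen with earlier results of these data known. The text names all members, their closest genes among those whose log2 CPM averaged 1 or more, and up to 4 called genes per other list by smallest p, beside genes named for a count of comparisons after their values were seen (such as HSP90B1 and PPP5C). Exon lengths and overlaps are from GENCODE 29 on GRCh38, the build the notes name. Alternatives were RLE size factors, total counts, no filter, a replicate block, only the groups compared, DESeq2 1.42.0, each library left out and, added after seeing the data, replicate 3 of both Target-AID groups left out. Figures used Python 3.11.15, pandas 2.3.3 and matplotlib 3.10.9.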

Additional observations from a re-analysis of the deposited data

How the results depend on the processing

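No call of a member turned direction under any alternative. Of 330 log2 fold changes (10 members, 33 comparisons), 329 kept their side of the threshold with RLE size factors, 323 with DESeq2, 323 with the replicate block, 318 without Target-AID replicate 3 of both guides, 315 with no filter on low counts, 311 with only the groups compared and 298 with total counts. HSP90AA1, CHORDC1 and STIP1 remained called against nCas9 in all 8 comparisons under each of these and with each library left out. Counts of members called that moved by over 1.5 times were few. Target-AID against GFP with RNF2 went from 10 to 6 with only the groups compared, and Target-AID against SpACE from 2 to 4 with total counts. ABEmax against miniABEmax-V82G went from 1 to 2 with total counts, with DESeq2 and with the replicate block, and to 3 with only the groups compared or without Target-AID replicate 3 of both guides. Between the guides, nCas9 went from 0 to 1 with the replicate block, with DESeq2 and without those libraries, and miniABEmax-V82G from 2 to 4 with only the groups compared. Leaving out single libraries gave 5 to 8 members for ABEmax against GFP with HEKsite2, the 5 coming without GFP replicate 1 or ABEmax replicate 2, and moved no other count that far. Shares of all genes called in these alternative fits are not given here. The replicate block lost no call and added 7. Same-numbered libraries correlated at a median of 0.0529 and others at -0.0277, and 25 of 33 correlated best with their own number. This is a hint from the data, not from the design. The cause of these shifts was not tested. Depth bears most on FKBP5, where counting error of 3.66% to 4.74% was about as large as the spread between libraries.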

Other observations

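Genes whose proteins depend on HSP90 moved in both directions. Of 32 tested HSP90 client genes, 6 rose and 3 fell against nCas9 with HEKsite2 in ABEmax, 3 and 4 in miniABEmax-V82G, 11 and 8 in Target-AID and 9 and 5 in SpACE, where 15.9%, 10.3%, 40.6% and 21% of all genes were called. With RNF2 the counts were 3 and 2, 5 and 5, 8 and 8, and 5 and 5 in the same order, against 11.2%, 12.6%, 35.2% and 14.7%. The list's median log2 fold change was -0.03 to 0.05 over the 8 comparisons. CDK4, a kinase loaded through CDC37, fell in all 8 comparisons of an editor with nCas9, at -0.54 in Target-AID with HEKsite2 (adjusted p = 1.74e-07), and was higher in nCas9 than in GFP by 0.55 and 0.52 (adjusted p = 1.69e-07 and 3.35e-07). WEE1, a cell cycle kinase, rose in Target-AID with HEKsite2 by 0.39 (adjusted p = 2.79e-05).

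Among 18 tested targets of the glucocorticoid receptor, an HSP90 client, 7 rose and 3 fell in Target-AID with each guide, where 40.6% and 35.2% of all genes were called. With HEKsite2 the counts were 4 and 2 in ABEmax (15.9%), 3 and 1 in miniABEmax-V82G (10.3%) and 3 and 3 in SpACE (21%), and with RNF2 3 and 2 (11.2%), 1 and 2 (12.6%) and 3 and 3 (14.7%). The phosphatase gene DUSP1 rose in Target-AID by 2.59 and 2.47 (adjusted p = 3.16e-26 and 2.26e-25) and in ABEmax with HEKsite2 by 1.33 (adjusted p = 7.28e-15). FKBP5, a member of the same receptor's target set, was called in none of the 8 comparisons with nCas9. Of 20 genes of mitochondrial protein quality control, where TRAP1 works, 4 rose and 6 fell in Target-AID with HEKsite2 (40.6% of all genes called) and 6 and 3 with RNF2 (35.2%). With HEKsite2 the counts were 4 and 1 in ABEmax (15.9%), 2 and 1 in miniABEmax-V82G (10.3%) and 3 and 2 in SpACE (21%), and with RNF2 5 and 2 (11.2%), 4 and 1 (12.6%) and 5 and 1 (14.7%). The chaperonin HSPD1 rose in all 8 comparisons, by 0.63 in Target-AID with HEKsite2 (adjusted p = 4.54e-11). The list of heat shock factors held 5 genes, and the counts called are not given here. One of them, HSBP1, encodes not a factor but a small protein that binds HSF1. In Target-AID with HEKsite2 it fell by 0.49 (adjusted p = 8.32e-07) and HSF1 itself by 0.21 (adjusted p = 0.0271). Of all genes, 19.1% were called lower in that comparison.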
